A study of Homo sapiens with 16 samples.

Results

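The mRNAs of 10 chromatin remodellers (CHD1, CHD2, CHD3, CHD4, CHD6, CHD7, CHD8, CHD9, EP400 and SRCAP) were picked by gene name from the 16324 genes that both deposited tables list, and all 10 were found in each. Their proteins are large ATPases of the SNF2 family that use ATP to slide, space or exchange nucleosomes. EP400 and SRCAP are the motor subunits of complexes that place the histone variant H2A.Z into nucleosomes. The CHD proteins carry chromodomains, which read histone tails, and fall into subfamilies: CHD1 and CHD2 space nucleosomes in transcribed genes, CHD3 and CHD4 drive the deacetylase complex NuRD, and CHD6 to CHD9 form the third subfamily of very large proteins. Their genes are transcribed into long mRNAs.

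RNA bound to Strep-tagged proteins was sequenced (RIP-seq) from UM-SCC-1, an established line derived from a head and neck squamous carcinoma, to ask whether the m6A demethylase ALKBH5 and the RNA-binding protein RBM33 bind the same RNAs. The 16 libraries form 6 groups, all from cells infected with a lentivirus and selected with puromycin. StrepTactin pull-downs and inputs number 3 and 3 for strep-ALKBH5, 2 and 2 for strep-RBM33, and 3 and 3 for the tag-only vector Strep-Vec-1. The tagged baits are stably expressed in the cells that they were pulled from, and the labels do not tell whether replicates are separate cultures, so the p-values may measure technical spread only. Analysed were 2 tables in which the authors deposited their own comparison for each bait, called the ALKBH5 table and the RBM33 table below. Each gives for every gene a log2 fold change, the log2 CPM averaged over the libraries of the fit (CPM is a read count scaled to the size of its library), an F statistic and p-values, with no value per library.

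Neither table states the groups behind its fold changes or the direction of the ratio, and both carry the label siCtrl, which no library title uses. The ALKBH5 mRNA stood at 1.28 on the log2 scale in the ALKBH5 table (adjusted p = 0.00158, authors' deposited table, edgeR) and the RBM33 mRNA 3.41 in the RBM33 table (adjusted p = 5.14e-05, authors' deposited table, edgeR). Each bait's own mRNA was therefore positive in its own table. The RBM33 mRNA was also positive in the ALKBH5 table, at 1.17 (adjusted p = 7.1e-06, authors' deposited table, edgeR). The ALKBH5 mRNA was not called in the RBM33 table, at -0.21 (adjusted p = 0.245, authors' deposited table, edgeR). If pull-down was set against the matching input, both arms carry the introduced bait, and the sign does not settle the direction. Values are given as positive or negative, as deposited. It is not stated whether the tables share libraries, or whether the vector pull-down was used as background. The approximate standard error of a fold change was taken from the deposited values as its size divided by the square root of F, and the 95% intervals below use the degrees of freedom that F and p imply (13.2 for ALKBH5 and 11.2 for RBM33, the same for every member). The depth of each library is unknown here.

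All 10 remodeller mRNAs were positive in both tables, and none was negative. At an adjusted p under 0.05, 10 of 10 were called positive in the authors' deposited ALKBH5 table, against 30.5% of all genes. For RBM33, 10 of 10 were called positive in the authors' deposited table, against 24.0% of all genes. Called positive in both were 10 of 10 remodellers and 21.5% of all genes in the authors' deposited tables. The median log2 fold change of the remodellers was 1.27 in the ALKBH5 table and 1.50 in the RBM33 table, beside medians of 0.03 and -0.02 over all genes in the same authors' deposited tables. Their standard errors lay between 0.109 and 0.155 for ALKBH5 and between 0.146 and 0.196 for RBM33. The genes were chosen with earlier results of these data known, so these counts describe the 10 mRNAs and test nothing about them as a list.

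**Figure D1:**
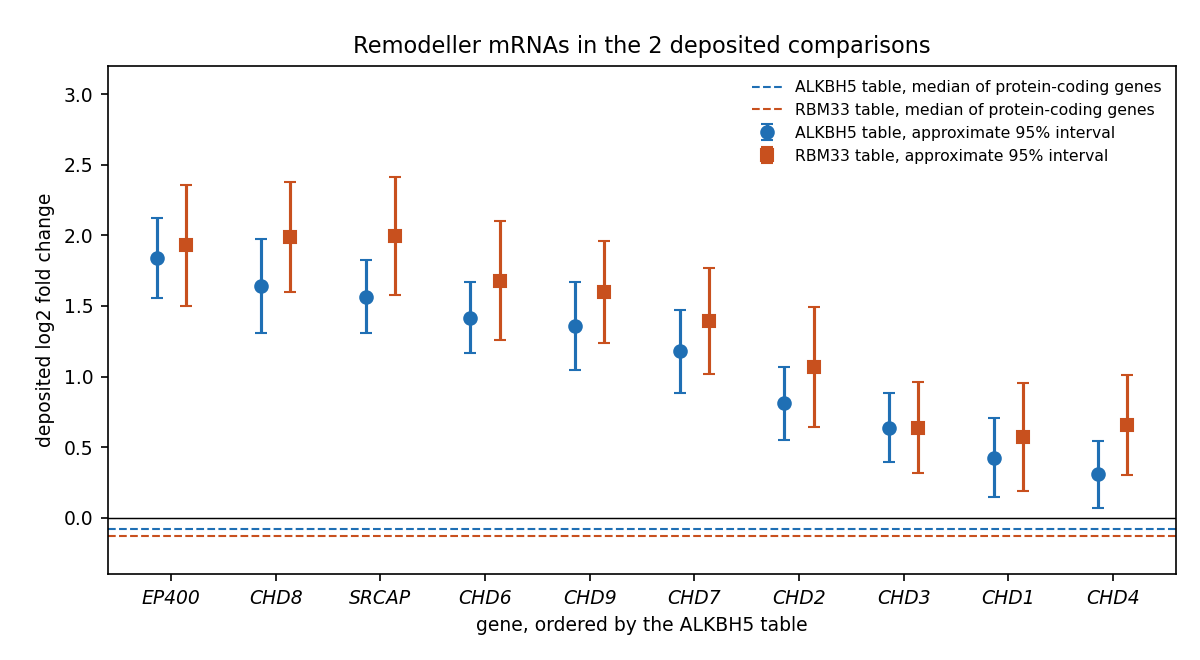
Deposited log2 fold change (y axis) of each remodeller mRNA (x axis) in the ALKBH5 table (blue circles) and the RBM33 table (orange squares), with approximate 95% intervals. Dashed lines mark the medians of protein-coding genes, -0.08 for ALKBH5 and -0.13 for RBM33. EP400, CHD8, SRCAP, CHD6, CHD9 and CHD7 lie above CHD3, CHD1 and CHD4 with no overlap of intervals in either table, and CHD2 lies between them.

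The motor subunits of H2A.Z exchange were among the 3 highest in each table. EP400 (ENSG00000183495, chromosome 12, 131949942 to 132080460, plus strand, hg38) reached 1.84 in the authors' deposited ALKBH5 table (interval 1.55 to 2.13, adjusted p = 1.48e-07). In the authors' deposited RBM33 table it had 1.93 (interval 1.50 to 2.36, adjusted p = 1.77e-05). These values correspond to ratios of 3.58 and 3.81. EP400 is the scaffold and ATPase of the TIP60 histone acetyltransferase complex. SRCAP (ENSG00000080603, chromosome 16, 30698209 to 30741409, plus strand), the ATPase of the complex of the same name, stood at 1.57 in the authors' deposited ALKBH5 table (interval 1.31 to 1.82, adjusted p = 2.3e-07). Its value of 2.00 in the authors' deposited RBM33 table was the highest of the 10 (interval 1.58 to 2.41, adjusted p = 1.29e-05). The order of EP400, CHD8 and SRCAP differed between the tables, and their intervals overlapped in each.

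The third CHD subfamily followed closely. CHD8 (ENSG00000100888, chromosome 14, 21385194 to 21456126, minus strand), a regulator of beta-catenin target genes and a gene mutated in autism, had 1.64 in the authors' deposited ALKBH5 table (interval 1.31 to 1.97, adjusted p = 1.2e-06). Its value in the authors' deposited RBM33 table was 1.99 (interval 1.60 to 2.38, adjusted p = 9.74e-06), the smallest p of the 10 there. CHD6 (ENSG00000124177, chromosome 20, 41402083 to 41618384, minus strand) had 1.42 in the authors' deposited ALKBH5 table and 1.68 in the RBM33 table (adjusted p = 4.07e-07 and 3.7e-05). CHD9 (ENSG00000177200, chromosome 16, 53055033 to 53329150, plus strand) had 1.36 and 1.60 in the authors' deposited ALKBH5 and RBM33 tables (adjusted p = 3.39e-06 and 1.93e-05). CHD7 (ENSG00000171316, chromosome 8, 60678740 to 60868028, plus strand), the gene mutated in CHARGE syndrome, was the lowest of the subfamily, with 1.18 in the authors' deposited ALKBH5 table and 1.39 in the RBM33 table (adjusted p = 6.56e-06 and 5.49e-05). The 4 genes spanned 0.46 log2 units for ALKBH5 and 0.60 for RBM33, and the intervals of all 4 overlapped in each table.

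Members of the other subfamilies were lower. CHD2 (ENSG00000173575, chromosome 15, 92900189 to 93027996, plus strand), mutated in a childhood epilepsy, had 0.81 in the authors' deposited ALKBH5 table (interval 0.55 to 1.07) and 1.07 in the RBM33 table (interval 0.64 to 1.50), with adjusted p of 5.63e-05 and 0.00081. CHD1 (ENSG00000153922, chromosome 5, 98853985 to 98929007, minus strand), which binds trimethylated histone H3 lysine 4 through its chromodomains, had 0.42 in the authors' deposited ALKBH5 table (interval 0.14 to 0.70, adjusted p = 0.0123). In the authors' deposited RBM33 table it stood at 0.57 (interval 0.19 to 0.95, adjusted p = 0.0165). CHD3 (ENSG00000170004, chromosome 17, 7884796 to 7912760, plus strand) and CHD4 (ENSG00000111642, chromosome 12, 6570082 to 6614524, minus strand) are alternative motors of NuRD. CHD3 had 0.64 in each of the authors' deposited tables, with an interval of 0.39 to 0.89 for ALKBH5 and 0.32 to 0.96 for RBM33 (adjusted p = 0.0003 and 0.00364). CHD4, the lowest of the 10 in the authors' deposited ALKBH5 table, had 0.31 there (interval 0.07 to 0.54, adjusted p = 0.0266) and 0.66 in the RBM33 table (interval 0.30 to 1.01, adjusted p = 0.00521).

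Set in order, every neighbouring pair of the 10 had overlapping intervals in each table, so the order between neighbours is not resolved. Over all pairs, 24 of 45 had separate intervals in the ALKBH5 table and 21 of 45 in the RBM33 table. The upper 6 (EP400, CHD8, SRCAP, CHD6, CHD9 and CHD7) were separate from the lower 3 (CHD3, CHD1 and CHD4) in both tables. The closest of these were CHD7 and CHD3 for ALKBH5, with a lower bound of 0.886 for CHD7 and an upper bound of 0.885 for CHD3. For RBM33 the closest were CHD7, with a lower bound of 1.02, and CHD4, with an upper bound of 1.01. These bounds are approximate, and genes measured in the same libraries do not err independently.

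The values were larger in the RBM33 table for 9 of 10 remodellers, and CHD3 was equal to 2 decimals. The difference, ALKBH5 minus RBM33, had a median of -0.25 over the 10 and reached -0.43 for SRCAP. Over protein-coding genes the same difference had a median of 0.05 and quartiles of -0.20 and 0.32. The larger value was in the RBM33 table for 45.0% of them. Among those with a listed length of at least 10000 bases, that share was 49.4%. The intervals of the ALKBH5 and RBM33 tables overlapped for 10 of 10 remodellers. The share of all genes with such an overlap was not computed, so the count does not set these mRNAs apart. Whether the values differ between the baits was not tested, since no value per library is given and the normalization of the tables to each other is not stated.

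All 10 mRNAs come from genes with a long annotation. The listed gene length, which is deposited with each row and is not the length of 1 mRNA, ran from 10335 bases for CHD3 to 20953 bases for CHD8. Of the remodellers, 8 fell in the longest decile of protein-coding genes and the other two, CHD1 and CHD3, in the next one. Length went with the deposited values over the whole table: the longest decile of protein-coding genes (from 11193 bases) had a median of 0.70 in each of the authors' deposited tables. The shortest decile (up to 2089 bases) had -1.01 in the ALKBH5 table and -1.09 in the RBM33 table. Among the 1832 protein-coding genes of at least 10000 bases, 56.4% were called positive in the authors' deposited ALKBH5 table and 50.8% in the RBM33 table. These shares are the nearer background for 10 long genes.

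Relative to their own decile of listed length, 6 of the remodellers lay high and the other 4 lay near or below the middle. A decile matches length only roughly, since the longest runs from 11193 to 55886 bases. Within it CHD4 lies at percentile 93.5 of listed length over protein-coding genes and CHD8 at 99.0. Length differences inside a decile are not taken out of the values below. With the median of its own length decile subtracted, EP400 kept 1.14 for ALKBH5 and 1.23 for RBM33, SRCAP 0.87 and 1.29, and CHD8 0.94 and 1.29. CHD6 kept 0.72 and 0.98, CHD9 0.66 and 0.90, and CHD7 0.48 and 0.69 for ALKBH5 and RBM33. These 6 stood between percentiles 70.1 (CHD7) and 87.3 (EP400) of their length decile in the ALKBH5 table, and between 76.1 (CHD7) and 91.4 (SRCAP) in the RBM33 table. This upper group holds both motors of H2A.Z exchange and all of CHD6 to CHD9, and the other 4 are CHD1 to CHD4. The split is not sharp, since the intervals of CHD2 overlapped those of CHD7 and CHD9 in both tables. The grouping covers the 10 members only. CHD5, a paralogue of the NuRD motors CHD3 and CHD4 outside the 10, had 1.68 and 1.65 after the same subtraction, at a low level. CHD3 was left with 0.24 for ALKBH5 and 0.23 for RBM33, at percentile 61.2 of its decile in each table. CHD2 was left with 0.11 and 0.37, at percentiles 54.2 and 63.9. CHD1 was left with 0.03 and 0.16, at percentiles 50.9 and 58.0. CHD4 turned negative, with -0.39 for ALKBH5 and -0.05 for RBM33, at percentiles 34.5 and 48.4. Within the 10 genes, Spearman's rho between listed length and log2 fold change was 0.71 for ALKBH5 and 0.62 for RBM33. That is a description of 10 genes measured in the same libraries, beside 0.41 and 0.45 over all protein-coding genes. The genomic span, introns included, gave 0.27 and 0.15 over the same 10.

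**Figure D2:**
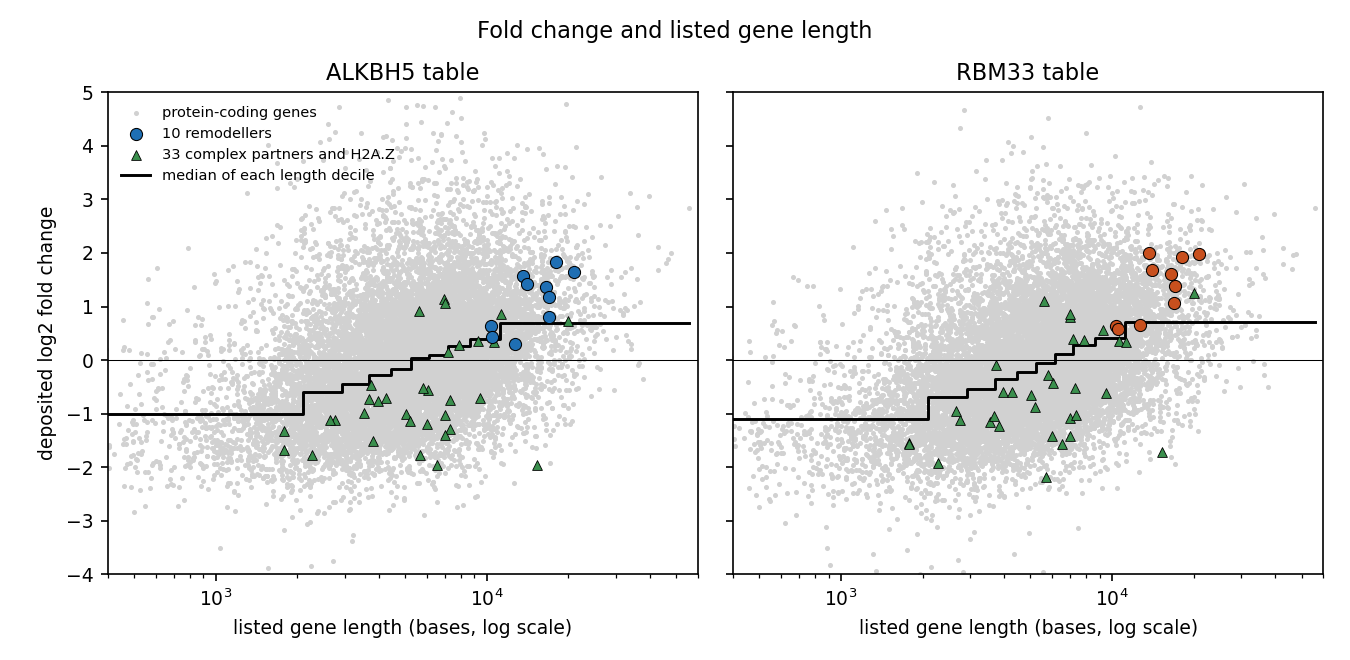
Deposited log2 fold change (y axis) against listed gene length in bases (x axis, log scale) in the ALKBH5 table (left) and the RBM33 table (right). Grey points are protein-coding genes, filled circles the 10 remodellers, green triangles 33 complex partners and H2A.Z genes, and the black line the median of each decile of length. The axes leave out 30 (ALKBH5) and 32 (RBM33) of 13210 genes. The median line climbs with length, with EP400, SRCAP and CHD8 well above it and CHD1 close to it. CHD4 lies below the line for ALKBH5 and close to it for RBM33.

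All 10 remodeller mRNAs lay above the median level of protein-coding genes, as averaged over the libraries of each fit. Per kilobase of listed length, their average level ran from 4.74 CPM for CHD9 to 15.8 CPM for CHD3 in the ALKBH5 table, beside a median of 4.09 over protein-coding genes. In the RBM33 table levels ran from 5.80 for CHD9 to 14.1 for CHD3, beside a median of 4.08. On this scale the 10 genes lay between percentiles 54.8 and 85.7 of protein-coding genes for ALKBH5 and between 60.6 and 83.1 for RBM33. CHD3, with the highest level per kilobase, was among the 3 lowest fold changes in each table. SRCAP, at 13.4 CPM per kilobase for ALKBH5 and 12.4 for RBM33, was among the 3 highest. Over the 10 genes, Spearman's rho between average log2 CPM and log2 fold change was 0.18 for ALKBH5 and 0.15 for RBM33.

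The other subunits of the same complexes lay mostly on the negative side. Of 33 partner and H2A.Z genes, all of them listed, the authors' deposited ALKBH5 table had 7 positive and 24 negative, where 30.5% and 29.1% of all genes were. For RBM33 the authors' deposited table had 6 of them positive and 22 negative, where 24.0% and 27.0% of all genes were. Their medians were -0.77 for ALKBH5 and -0.65 for RBM33. The remodeller genes are longer, with a median listed length of 15269 bases against 6027 in these partners. The 4 partners of at least 10000 bases had medians of 0.54 for ALKBH5 and 0.34 for RBM33, with 3 of 4 above 0 in each table. What part length has in the difference was not tested.

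The NuRD partners of CHD3 and CHD4 had 3 positive and 8 negative calls among 12 genes in each of the authors' deposited tables, with medians of -0.73 for ALKBH5 and -0.60 for RBM33. HDAC2, a catalytic deacetylase subunit, stood at -1.97 in the authors' deposited ALKBH5 table and -1.72 in the RBM33 table (adjusted p = 5.7e-07 and 1.01e-05). Its listed length of 15333 bases is close to the remodellers' median of 15269, but a listed length is not the length of 1 mRNA. What part length has in the values of HDAC2 was not tested. MBD2, which binds methylated DNA, had -1.78 and -2.18 in the authors' deposited ALKBH5 and RBM33 tables (adjusted p = 1.79e-06 and 1.09e-05). MTA1, a scaffold subunit, was on the other side, with 1.14 and 0.80 in the authors' deposited ALKBH5 and RBM33 tables (adjusted p = 7.36e-06 and 0.0022). GATAD2B, which joins the deacetylase and remodelling modules of the complex, had 0.36 and 0.56 in the authors' deposited ALKBH5 and RBM33 tables (adjusted p = 0.0213 and 0.00611).

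The partners of EP400 in the TIP60 complex had 4 positive and 12 negative calls among 17 genes in the authors' deposited ALKBH5 table, and 3 and 10 in the RBM33 table. MORF4L1, a chromodomain subunit, was lowest in the authors' deposited ALKBH5 table at -1.96 and had -1.58 in the RBM33 table (adjusted p = 2.67e-07 and 1.36e-05). TRRAP, a scaffold protein whose gene is as long as those of the remodellers (19972 bases), was positive at 0.74 and 1.26 in the authors' deposited ALKBH5 and RBM33 tables (adjusted p = 7.69e-05 and 4.41e-05). BRD8, a bromodomain subunit, had 1.07 and 0.86 in the authors' deposited ALKBH5 and RBM33 tables (adjusted p = 5.55e-06 and 0.00105). Several partners are shared with the SRCAP complex, so the TIP60 and SRCAP lists are not independent.

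Of the 8 SRCAP complex partners, 7 were negative and 1 positive in each of the authors' deposited tables. The positive gene was DMAP1, a subunit shared with TIP60, at 0.91 in the authors' deposited ALKBH5 table and 1.10 in the RBM33 table (adjusted p = 0.000173 and 0.000909). YEATS4, which reads acetylated histones, had -1.68 and -1.55, and VPS72, a chaperone of H2A.Z, -1.33 and -1.58 in the authors' deposited ALKBH5 and RBM33 tables. The paired AAA ATPases RUVBL1 and RUVBL2 had -1.39 and -0.98 in the authors' deposited ALKBH5 table and -1.41 and -1.15 in the RBM33 table. The actin-related subunits ACTR6 and ACTL6A had -1.52 and -0.73 in the authors' deposited ALKBH5 table and -1.23 and -1.05 in the RBM33 table. ZNHIT1, a zinc finger subunit, was negative with an adjusted p of 0.000189 in the authors' deposited ALKBH5 table and of 0.0128 in the RBM33 table, where its value was -0.65. H2AZ1, which encodes the variant that these complexes deposit, stood at -1.78 and -1.92 in the authors' deposited ALKBH5 and RBM33 tables (adjusted p = 1.35e-06 and 6.91e-06). H2AZ2, its paralogue, stood at -1.02 and -1.08 there (adjusted p = 2.88e-05 and 0.000118, authors' deposited tables). Motor and substrate of H2A.Z exchange had opposite signs in both tables, but their listed lengths differ. EP400 and SRCAP have 18041 and 13644 bases, H2AZ1 2270 and H2AZ2 7003, and the 8 SRCAP partners a median of 3740.5. With the median of its length decile subtracted, H2AZ1 had -1.19 for ALKBH5 and -1.24 for RBM33, and H2AZ2 -1.12 and -1.19. What part length has in the opposite signs was not tested.

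**Figure D3:**
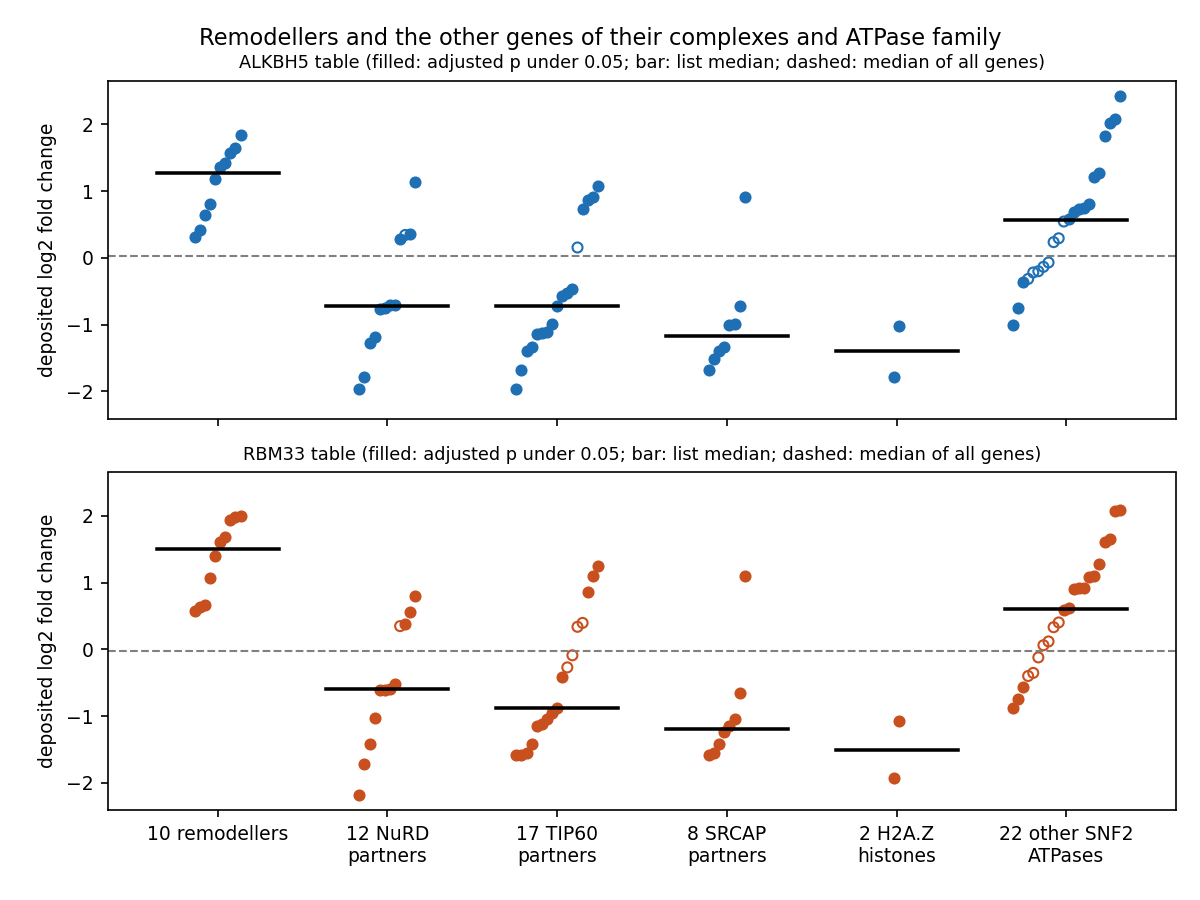
Deposited log2 fold change (y axis) of single genes in the ALKBH5 table (top) and the RBM33 table (bottom), by list (x axis). Filled points passed an adjusted p of 0.05, open points did not, the bar is the list median and the dashed line the median of all genes. All 10 remodellers lie above 0, whereas 7 of 8 SRCAP partners and both H2A.Z genes lie below it.

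Other ATPases of the SNF2 family had more positive than negative calls. Of 22 genes, 11 were positive, 3 negative and 8 not called in the authors' deposited ALKBH5 table, and 12, 3 and 7 in the RBM33 table. The positive shares were 50.0% for ALKBH5 and 54.5% for RBM33, above the 30.5% and 24.0% of all genes but near the 56.4% and 50.8% of protein-coding genes of at least 10000 bases. Of the 22, 7 lie in the longest decile. The remodellers' median listed length of 15269 bases compares with 8621.5 in this list. The remodellers' medians of 1.27 and 1.50 for ALKBH5 and RBM33 compare with 0.57 and 0.60 in this list, a difference that was not tested. SHPRH, a ubiquitin ligase with an SNF2 domain, led at 2.42 and 2.09 in the authors' deposited ALKBH5 and RBM33 tables (adjusted p = 1.99e-08 and 1.42e-05). With the median of its length decile subtracted, SHPRH had 1.72 for ALKBH5 and 1.39 for RBM33, above each of the remodellers. High values for listed length are thus not particular to the remodellers. SMARCA5 had -1.26 and -1.16 after the same subtraction. CHD5, a CHD protein known mainly from nervous tissue and a paralogue of CHD3 and CHD4, had 2.08 and 2.06 in the authors' deposited ALKBH5 and RBM33 tables (adjusted p = 0.000481 and 0.00125). Its level was low, at 0.538 and 0.560 CPM per kilobase of listed length for ALKBH5 and RBM33, and its standard errors of 0.395 and 0.401 were more than 2 times those of any of the 10 members. SMARCAL1, which anneals single-stranded DNA at stalled replication forks, had -0.76 and -0.56 (adjusted p = 0.000923 and 0.0327), and SMARCA5, the ISWI motor, was negative at -1.01 and -0.88 in the authors' deposited ALKBH5 and RBM33 tables (adjusted p = 7.35e-06 and 0.000541). CHD1L, a remodeller recruited by poly(ADP-ribose), had -0.37 and -0.75 in the authors' deposited ALKBH5 and RBM33 tables (adjusted p = 0.015 and 0.00192).

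The genes nearest to the remodellers' median values in the 2 tables, by distance over the 2 comparisons, were TNRC6A, TOP3B, IL10RA, NHSL1 and PRAG1. TNRC6A, a GW182 protein of microRNA silencing, was nearest, with 1.26 and 1.49 in the authors' deposited ALKBH5 and RBM33 tables. IL10RA, a chain of the interleukin-10 receptor, had similar values of 1.28 and 1.51 but was not called in the authors' deposited ALKBH5 or RBM33 table (adjusted p = 0.262 and 0.151).

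Another 12 rows of the tables overlap 7 of the 10 remodeller genes, and CHD1, CHD6 and CHD7 have none. Of these rows, 3 are small RNAs inside a remodeller gene on its own strand, and each exceeded its host by far. SNORA49, an H/ACA box RNA inside EP400 (chromosome 12, 132031224 to 132031359), had 5.24 in the authors' deposited ALKBH5 table and 5.15 in the RBM33 table (adjusted p = 4.81e-07 and 1.71e-06). That was 3.40 and 3.22 above EP400 on the log2 scale. SNORD8, a C/D box RNA inside CHD8 (chromosome 14, 21397292 to 21397401), had 4.60 and 4.88 in the authors' deposited ALKBH5 and RBM33 tables (adjusted p = 0.00211 and 1.58e-06). SCARNA21, a Cajal body RNA inside CHD3 (chromosome 17, 7906122 to 7906260), had 4.59 and 3.27 in the authors' deposited ALKBH5 and RBM33 tables (adjusted p = 0.00055 and 5.71e-07), although CHD3 itself had 0.64. Per kilobase, the 3 small RNAs had 57.3 (SCARNA21), 38.3 (SNORD8) and 32.6 (SNORA49) times the level of their hosts in the ALKBH5 table. How reads of the host over these short rows were assigned is not given in the sources used here, and their part in these values was not tested.

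Some overlapping rows share much of their span with a remodeller and cannot be taken as separate measurements. AC106886.5, annotated as protein-coding on the strand of SRCAP, covers 86.4% of its span and had 1.47 and 1.91 in the authors' deposited ALKBH5 and RBM33 tables, close to SRCAP. AC006064.6 covers 83.9% of the span of CHD4 on the same strand and stood at 0.07 and 0.43 in the authors' deposited ALKBH5 and RBM33 tables (adjusted p = 0.642 and 0.0405). Its level per kilobase was 1.99 times that of CHD4 for ALKBH5 and 2.00 times for RBM33, and how reads common to both rows were counted is not given in the sources used here. AC013394.1 overlaps CHD2 over 38.4% of its span and had 0.97 and 0.98 in the authors' deposited ALKBH5 and RBM33 tables. NAA38, on the opposite strand, shares 443 bases with the start of CHD3 and had -1.40 in the authors' deposited ALKBH5 table and -1.39 in the RBM33 table. AC079416.4, an unclassified row of 549 bases inside CHD9 on its strand, had 1.86 and 1.49 in the authors' deposited ALKBH5 and RBM33 tables, near CHD9. TMEM265, AC106886.2 and AC093249.6 overlap SRCAP by less than 2% of its span each, and AC006064.2 lies inside CHD4 on the opposite strand at 0.0246 times its level per kilobase for ALKBH5. Of these 4, AC093249.6 was called for ALKBH5 at 1.15 and AC106886.2 for RBM33 at -0.87 in the authors' deposited tables, and no other was called.

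**Figure D4:**
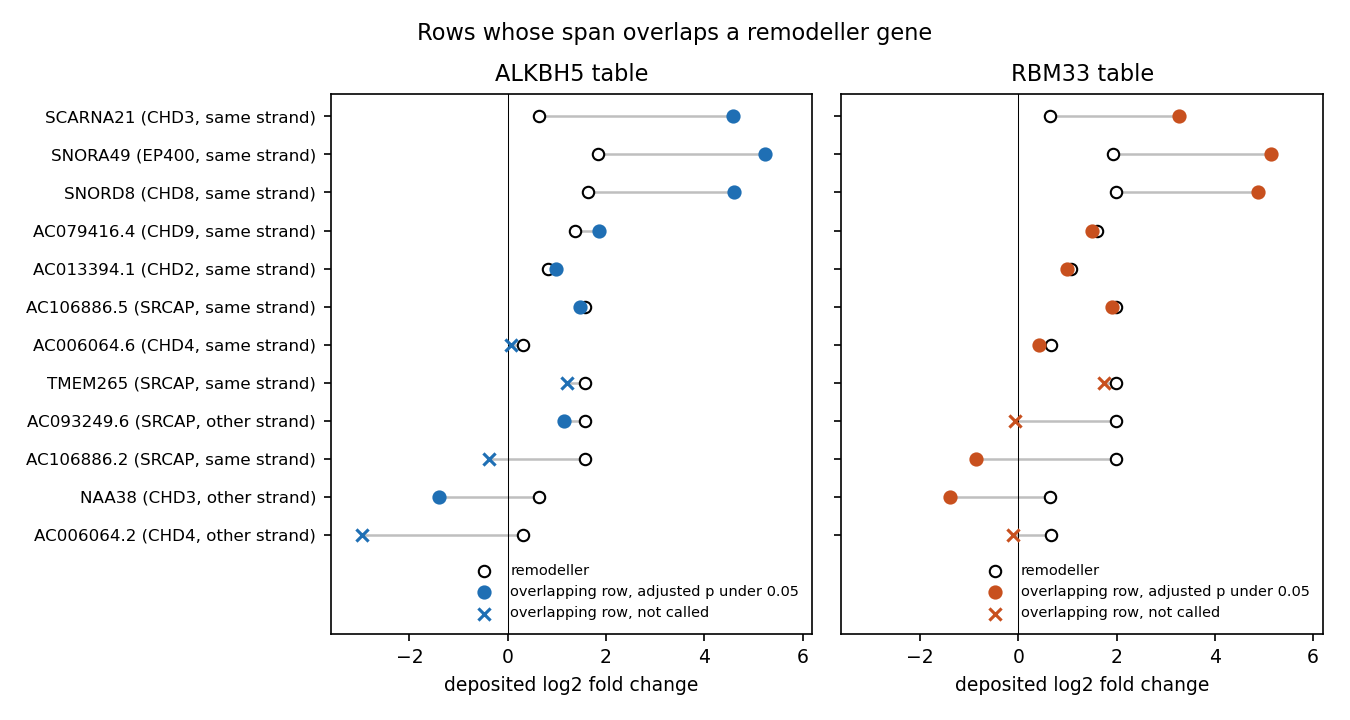
Deposited log2 fold change (x axis) of the 12 rows that overlap a remodeller gene (coloured) and of that remodeller (open circle), joined by a line, in the ALKBH5 table (left) and the RBM33 table (right). Crosses mark rows that did not pass an adjusted p of 0.05. SCARNA21, SNORA49 and SNORD8 lie far right of their hosts, while AC106886.5 lies beside SRCAP.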

How the data were processed

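Per the labels' protocols, RNA was fragmented and made into stranded libraries of total RNA (Takara SMARTER Pico kit) for sequencing on an Illumina NovaSeq. Named in the submitters' processing notes are edgeR 3.24.3, Subread 1.6.4 with featureCounts, HISAT2 2.1.0, cutadapt 1.18 and build hg38. The sources used here do not state the annotation release, low-count filter, normalization or strand setting. The columns, per the file headers, are the authors' log2 fold change and log2 CPM average, their F statistic (a score), its p-value and Benjamini-Hochberg adjusted p-value, and a listed gene length.

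The planned count model could not be run on such tables, so the authors' F test was used: a gene was called at an adjusted p under 0.05, with the deposited sign. Recomputing the adjustment over all 16324 genes gave the deposited values. Standard errors and 95% intervals were derived from the deposited log2 fold change, F and p-value with Python 3.11.15 and scipy 1.17.1, and tested on simulated data. Length deciles were formed over 13210 protein-coding genes. Members and lists were chosen with earlier results of these data known. Named were all members, all rows overlapping them, the 2 called partners with the largest value of each sign per list and table (every gene of lists of 8 or fewer), and the 5 nearest protein-coding genes. Alternatives were a threshold of 0.01, a minimum of 1 log2 unit, abundant genes or protein-coding genes only, and centring. Centring used the median of all protein-coding genes, of the same length decile or of the same decile of average log2 CPM. Cells with RBM33 siRNA, which the design names, were not analysed here.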

Additional observations from a re-analysis of the deposited data

How the results depend on the processing

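With abundant genes or protein-coding genes only, 10 of 10 remodellers were called positive for each bait. At a threshold of 0.01, ALKBH5 kept 8 and RBM33 9, where 24.4% and 16.6% of all genes were called positive. With a minimum of 1 log2 unit, ALKBH5 kept 6 and RBM33 7, where 21% and 17.1% of all genes were called positive. That minimum also left, for ALKBH5, 1 positive and 4 negative NuRD partners, 1 and 7 TIP60 partners, 0 positive SRCAP partners, and 6 positive and 1 negative other SNF2 ATPases. For RBM33 it left 0 positive and 4 negative NuRD partners, and 7 positive and 0 negative other SNF2 ATPases. At 0.01, 1 NuRD partner was positive for ALKBH5. The share of all genes called negative was not computed at these settings. Centring on all protein-coding genes, whose medians were -0.08 and -0.13, moved no remodeller by more than its standard error. Subtracting the median of the same length decile brought the remodellers' median to 0.57 for ALKBH5 and 0.79 for RBM33, and turned CHD4 negative (-0.39 and -0.046). Subtracting that of the same decile of average log2 CPM gave 1.75 and 2.05. No paired analysis was possible because the tables hold no value per library, and leaving out replicates and another count model were not run for the same reason. Depth per library is unknown.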
